A study of Zea mays with 48 samples.

Results

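The 150 probe sets described here are maize transcripts whose level in the stem pulvinus peaked 15 min after the plants were laid on their side. They were chosen on total RNA: a probe set had to reach a mean of at least 7 on the log2(signal + 16) scale over all 48 arrays, to have its highest change against vertical plants at 15 min among the 5 times sampled, and to change by more than 0.5 at 15 min in each biological repetition alone. Of 17545 probe sets on the array 10299 reached the mean level, 253 of those met the other conditions, and the 150 with the highest change at 15 min are the members. The last members inside the cut changed by 1.11 (Zm.5193.1.A1_at), 1.10 (Zm.19021.1.A1_at) and 1.09 (Zm.8866.1.A1_at), and the first outside it by 1.08 (Zm.3611.1.S1_at), 1.08 (Zm.6021.1.A1_at) and 1.08 (Zm.10115.1.S1_x_at). The total RNA changes that chose the members are therefore given as a description, without a test. Tests are given for polysomal RNA, whose arrays entered the choice only through the mean level over 48 arrays, and for the difference between the 2 sides of the pulvinus, which the choice did not use. A dim transcript can reach that mean through the arrays on which it is high: 141 members reached it without the polysomal arrays at 15 min, and the other 9 did so only with them.

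Plants of the inbred B73, about 6 weeks old and grown in a greenhouse, were reoriented by 90 degrees for 2, 5, 15, 30 or 60 min, and controls stayed vertical. At each time the second pulvinus above the soil was split along its length, separating the slowly elongating upper side from the fast elongating lower side. Control pulvini were cut into a left and a right side. The same side of 6 pulvini was pooled, the frozen powder was divided for total RNA and for RNA bound to polysomes, and the whole experiment was run in 2 growing seasons (biological repetitions 1 and 2). Each kind of RNA thus has 4 arrays per time, 2 sides from each of 2 plant pools, and 4 arrays of vertical plants. Both sides of a pool come from the same plants, and total and polysomal RNA come from the same powder. All times were compared with the same vertical plants, and since no group was handled without being turned, handling of the pots and reorientation cannot be told apart.

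The pulvinus is a disc of tissue at the base of the grass leaf sheath that bends the shoot upright again when its lower side elongates more than its upper side. Sedimenting starch grains signal the change of direction, and calcium, inositol phosphates, pH and later auxin are known parts of the response. Genes that rise within minutes of a mechanical or gravitational stimulus in plants often encode calcium-binding proteins and kinases, transcription factors of the AP2 family and enzymes that act on the cell wall, and many of their transcripts fall again within an hour. Polysomal RNA is the fraction of transcripts carrying several ribosomes and serves as a measure of what is being translated.

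The platform annotation lists a single gene for 11 of the 150 members, standing for 10 genes, and none for the other 139 (7.33% of members against 8.75% of all tested probe sets have one). The members carry 146 distinct identifier stems, so that 4 stems are represented by a pair of probe sets each, and 136 members are of the class designed to match a single transcript. Members without a listed gene are named by their probe set.

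The 48 arrays were comparable in level, with a median signal between 174 and 217. The pair of polysomal arrays of the 5 min pool of repetition 1 stood apart. Across probe sets their log2 values, upper against lower side, correlated with r = 0.900. The 2 sides of the 11 other polysomal pools had r between 0.972 and 0.991. The r of 0.900 cannot tell which array of the pair differed. The array labelled upper side is called the array that stood apart below, as a name only. Calls at 5 min are given with and without it. No marker of a pulvinus cell type was used, so the tissue label was not checked from the arrays. Of 13 probe sets for photosynthesis genes the summed signal in repetition 1 was 23376 and 24834 in total RNA of vertical plants and 11725 and 14260 at 15 min, while in repetition 2 it was 24781 and 25538 in vertical plants and 25045 and 26184 at 15 min. The summed signal of 16 probe sets matched by symbol as genes of dividing cells (cyclins, histones and PCNA, with 1 cyclotide gene that the match also took in) was between 17199 and 19067 over the 8 vertical arrays and between 13286 and 16597 over the 8 arrays at 15 min. Of the probe sets matched as markers of other organs, 2 of 7 for seed storage and 2 of 5 for pollen reached the mean level of 7; 1 of the former also carries the haemoglobin symbol Hb, and both of the latter are profilins, which are not particular to pollen.

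In total RNA the median change of the members, in log2(signal + 16) against vertical plants, was 0.30, 0.38, 1.74, 0.98 and 0.54 after 2, 5, 15, 30 and 60 min. The middle 50% of them lay between 1.31 and 2.42 at 15 min and the whole set between 1.09 and 5.98. The median over all 10299 tested probe sets stayed between -0.03 and 0.02. Most members were below 50% of their 15 min change at 5 min, and most kept at least that share at 30 min. The counts with at least 50% were 27, 89 and 36 after 5, 30 and 60 min. At 5 min 51 members in repetition 1 and 77 in repetition 2 already exceeded a change of 0.5 (all tested 3.1% and 6.49%). At 60 min 21 members were below their level in vertical plants. In these pooled tissue samples fewer cells of a type and less RNA per cell cannot be told apart.

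**Figure D1:**
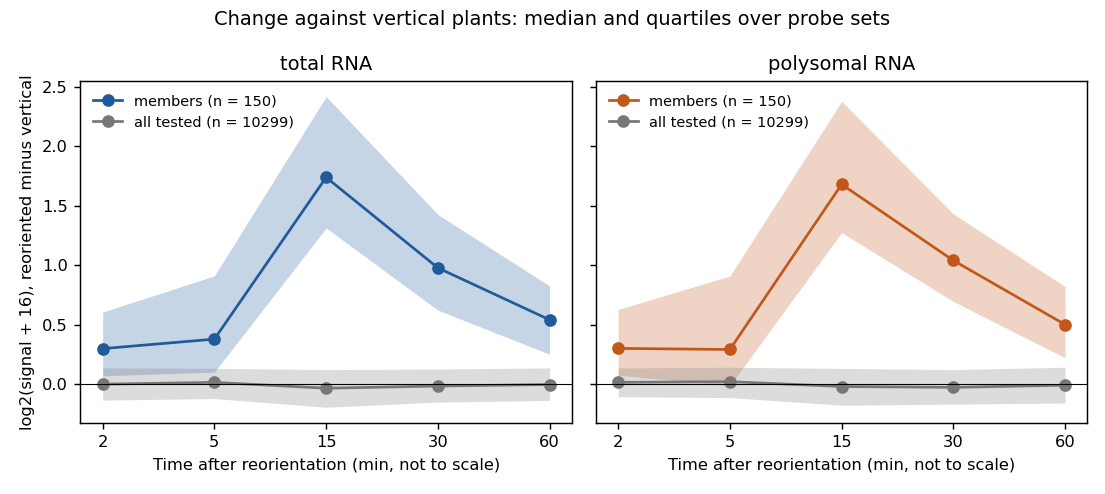
Median (line) and middle 50% (shading) of the change in log2(signal + 16) against vertical plants at 2 to 60 min after reorientation, for the 150 members (coloured) and all 10299 tested probe sets (grey), in total RNA (left) and polysomal RNA (right). The total RNA panel shows the values that chose the members; in polysomal RNA the members' median is 0.29 at 5 min and 1.68 at 15 min, while all tested probe sets stay near 0.

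In polysomal RNA the members showed the same course. Their median change was 0.30 and 0.29 after 2 and 5 min, rose to 1.68 after 15 min (3.20-fold), and was 1.04 and 0.50 after 30 and 60 min. At 15 min 137 of the 150 members (91.3%) were higher than in vertical plants at an adjusted p under 0.05 by limma and none was lower, against 2.75% of all tested probe sets called higher. Of the 141 that reached the mean level without the polysomal arrays at 15 min, 128 were called. The 4 arrays at 15 min all lay above the 4 vertical arrays for 141 members, against 6.73% of all tested probe sets. The highest polysomal change of the 5 times fell at 15 min for 137 members, at 30 min for 12 members and at 5 min for 1 member, whereas 16.8% of all tested probe sets peaked at 15 min. Since the total and polysomal extracts share their powder, the agreement covers extraction, labelling and hybridisation, not the growing of new plants.

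The rise at 15 min was present in both seasons. In polysomal RNA the median change of the members was 1.64 in repetition 1 and 1.84 in repetition 2, and 145 members exceeded 0.5 in both, against 3.21% of all tested probe sets. The choice had required more than 0.5 in each repetition in total RNA from the same powders. This count is therefore not a separate check of the seasons. The summed polysomal signal of the photosynthesis probe sets was 13948 and 15175 at 15 min against 28520 and 28689 in vertical plants of repetition 1, and 24780 and 24920 against 25635 and 26395 in repetition 2. The part of this difference in the members' values was not tested. Across the 150 members the polysomal change at 15 min followed the total RNA change (r = 0.957, a description across probe sets that share their powders), and the changes in the 2 seasons had r = 0.760.

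**Figure D2:**
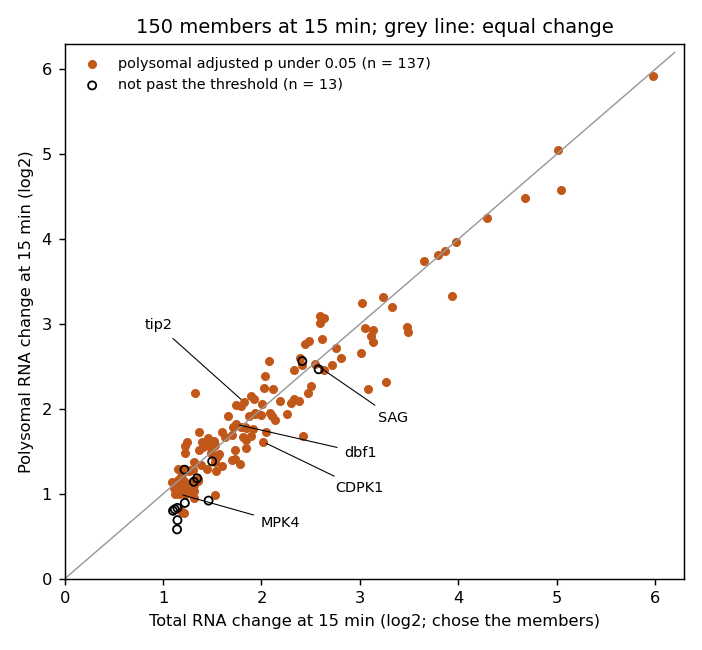
Change at 15 min in polysomal RNA (vertical axis) against that in total RNA (horizontal axis), both as log2(signal + 16) against vertical plants, 1 point per member; filled points passed the polysomal test (137) and open circles did not (13). Points lie along the line of equal change from about 1 to 6, with SAG, dbf1, CDPK1, tip2 and MPK4 in its lower part.

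Both signalling kinases among the annotated members rose, CDPK1 by 3.06-fold and MPK4 by 2.0-fold. CDPK1 (LOC542224, Zm.20.1.S1_at), a calcium-dependent protein kinase that links calcium to phosphorylation, had polysomal signals of 514, 413, 386 and 401 in vertical plants, in the order left and right of repetition 1, then of repetition 2. At 15 min the signals were 1288, 1108, 1486 and 1506 for upper and lower sides in the same order, with no overlap. The change was 1.61 ± 0.21 (SE, adjusted p = 0.000238, limma), and it remained called at 30 min (1.34, adjusted p = 0.00273) and at 60 min (0.92, adjusted p = 0.0451). At 2 and 5 min it was 0.26 and 0.13, neither past the threshold, so the kinase transcript moved between 5 and 15 min (15 against 5 min: 1.48, adjusted p = 0.000642). MPK4 (Zm.217.1.S1_at), a mitogen-activated protein kinase, had the smallest rise of the annotated members. Its polysomal signals were 356, 464, 437 and 485 in vertical plants and 929, 761, 801 and 1060 at 15 min, again without overlap, and its change was 1.00 ± 0.15 (SE, adjusted p = 0.000733, limma). At 30 min MPK4 was still higher by 0.74 (adjusted p = 0.0152), and at 60 min the change was 0.57 with an adjusted p of 0.0721.

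The transcription factor dbf1 (LOC542569, Zm.10842.1.S1_a_at), a maize member of the AP2 family that binds the drought-responsive element, was already high at 2 min. Its polysomal signals were 383, 365, 359 and 332 in vertical plants and 1052, 762, 1432 and 1549 at 2 min. They were 806, 720, 760 and 915 at 5 min and 1556, 1409, 1183 and 1134 at 15 min. Every array of the first 3 times thus lay above every vertical array. The fit called dbf1 higher at 15 min (1.82 ± 0.26 SE, adjusted p = 0.000465, limma) and at 30 min (1.19, adjusted p = 0.0253), whereas 1.64 at 2 min (adjusted p = 0.131) and 1.11 at 5 min (adjusted p = 0.0640) missed the threshold. At 60 min its change was 0.46 (adjusted p = 0.449) and it was lower than at 15 min (15 against 60 min: 1.36, adjusted p = 0.00856). In the total RNA that chose the members its change was already 1.44 at 2 min and 1.74 at 15 min, so its place among transcripts that peak at 15 min rests on a small margin.

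UGlcAE (LOC732831) encodes a UDP-glucuronate 4-epimerase, which makes the UDP-galacturonic acid used for pectin in the cell wall, and is represented by a pair of members. For Zm.12322.1.A1_at the polysomal signals were 469, 527, 196 and 191 in vertical plants and 1064, 1700, 861 and 928 at 15 min. The groups did not overlap. The level differed between the seasons and each season showed the rise, with a change of 1.41 in repetition 1 and 2.12 in repetition 2 (1.76 ± 0.34 SE over both, adjusted p = 0.00565, limma). Zm.5311.1.A1_at, the other probe set, rose by 1.19 ± 0.25 (SE, adjusted p = 0.0105). The pair differed in its later course: Zm.12322.1.A1_at was at -0.54 against vertical plants at 60 min and lower than at 15 min (15 against 60 min: 2.30, adjusted p = 0.00114), while Zm.5311.1.A1_at was still called at 30 min (1.10, adjusted p = 0.0274) and at 0.79 at 60 min (adjusted p = 0.132). Without the growing season in the model neither probe set passed, with adjusted p = 0.606 and 0.669.

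Transport proteins gave weaker calls. For tip2 (LOC541893, Zm.612.1.A1_at), a tonoplast aquaporin that lets water cross the vacuolar membrane, the polysomal signals were 95.6, 60.0, 41.9 and 45.3 in vertical plants and 135, 168, 587 and 570 at 15 min, without overlap but with far higher values in repetition 2. Its change was 0.86 in repetition 1 and 3.32 in repetition 2, with an adjusted p of 0.0410 (2.09 ± 0.54 SE, limma) that held under 8 of 17 alternative settings. In repetition 2 tip2 was already high at 2 min (581 and 687), in repetition 1 it was not (95.4 and 72.1), so its timing differed between the seasons. The phosphate transporter gene pht7 (Zm.1921.1.S1_at) went from 133, 157, 36.9 and 24.1 to 248, 361, 180 and 170, a change of 1.51 ± 0.37 (SE, adjusted p = 0.0283), held under 11 of 17 settings. The groups did not overlap, although vertical plants of repetition 1 (133 and 157) came close to the reoriented plants of repetition 2 (180 and 170). pht7 reached the mean level for testing only with the polysomal arrays at 15 min, so its test is not independent of its choice.

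Of the other annotated members, SAG (LOC542202, Zm.1425.1.S1_at) changed most. Its polysomal signals were 249, 337, 157 and 168 in vertical plants and 1356, 1165, 1266 and 1574 at 15 min, without overlap, a change of 2.53 ± 0.26 (SE, adjusted p = 2.12e-05, limma). It stayed higher at 30 min (2.09, adjusted p = 0.000328) and at 60 min (1.55, adjusted p = 0.00824). LOC542227 (Zm.39.1.S1_s_at) rose by 1.38 ± 0.22 (adjusted p = 0.00125) and LOC732777 (Zm.12037.1.S1_at) by 1.14 ± 0.17 (adjusted p = 0.000613). LOC732777 was at 1.31 at 30 min in polysomal RNA, and its 15 minus 30 min difference of -0.18 was not past the threshold (adjusted p = 0.989). LOC100125656 (Zm.687.1.A1_at) missed the threshold, with a change of 0.17 in repetition 1, where vertical plants were already at 1378 and 1176, and 2.60 in repetition 2, where they were at 150 and 167 (adjusted p = 0.172). Of the 11 annotated members 10 thus passed the polysomal test at 15 min, among them pht7, which entered the tests only through the arrays tested.

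**Figure D3:**
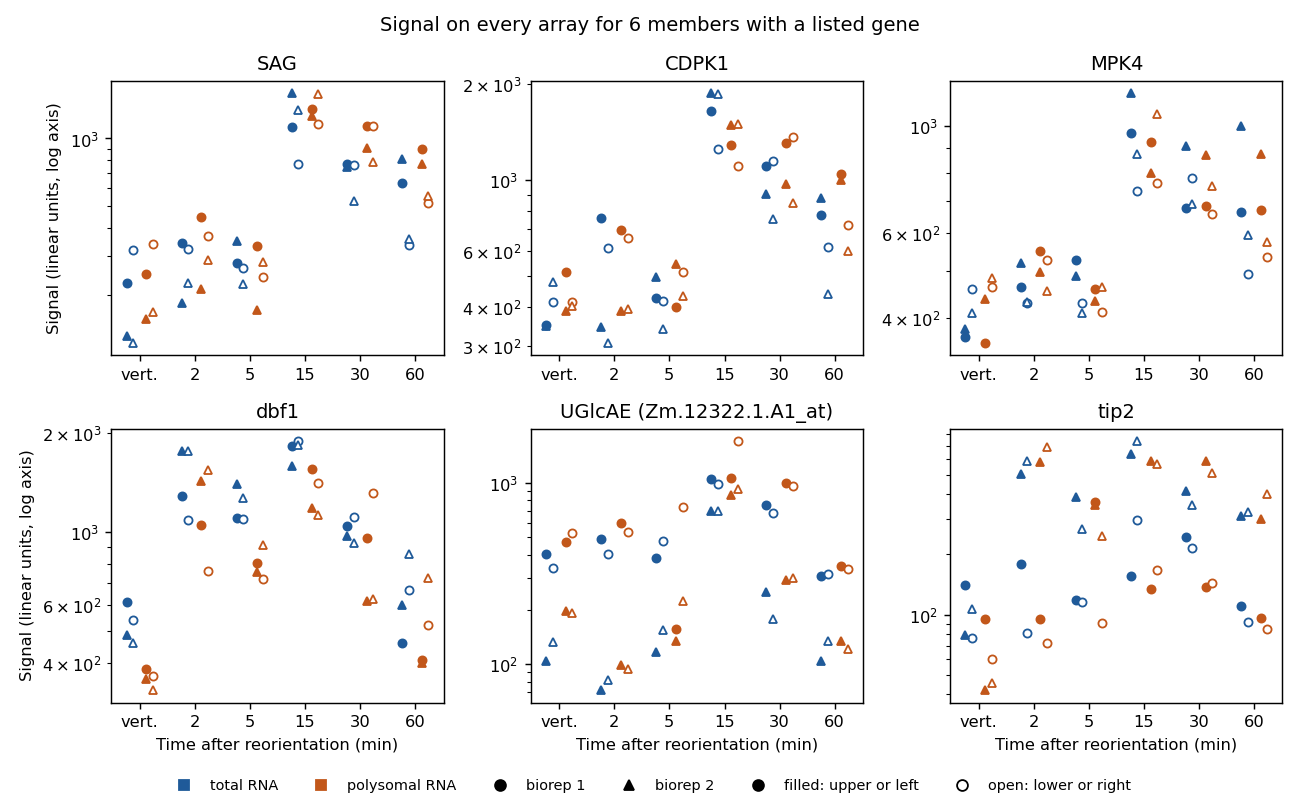
Signal (linear units on a log axis) on every array for 6 annotated members, by time after reorientation, in total RNA (blue) and polysomal RNA (orange); circles are repetition 1, triangles repetition 2, filled symbols upper or left sides and open symbols lower or right sides. SAG, CDPK1 and MPK4 step up between 5 and 15 min, dbf1 is up from 2 min, and tip2 separates by season.

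The strongest members carry no listed gene. Zm.1524.1.A1_at was near the floor of the array in vertical plants, with polysomal signals of 55.8, 64.2, 1.2 and 6.8, and reached 2243, 1984, 2413 and 2744 at 15 min. Its change of 5.92 ± 0.68 (SE, adjusted p = 5.56e-05, limma) is 60.5-fold on the log2(signal + 16) scale, a scale that understates folds from so low a start. It remained at 5.16 at 30 min (adjusted p = 0.000498), and at 60 min it was at 2.40 (adjusted p = 0.0946). Zm.16474.1.A1_at had the largest drop from 15 to 30 min of the 10 strongest members. Its polysomal signals were 69.5, 57.7, 38.1 and 26.7 in vertical plants, 1938, 1950, 1929 and 2367 at 15 min and 80.8, 83.1, 123 and 86.4 at 30 min. It reached the mean level for testing only with the polysomal arrays at 15 min, so its tests are not independent of its choice. With that limit, it rose by 5.06 ± 0.40 (adjusted p = 2.54e-06, limma) and was lower at 30 than at 15 min by 4.25 (adjusted p = 0.000173). Zm.1527.2.A1_a_at behaved alike, with 127, 115, 152 and 146 in vertical plants, 2824, 3322, 3371 and 3910 at 15 min and a difference of 3.65 between 15 and 30 min (adjusted p = 0.000196). For both transcripts each of the 4 polysomal arrays at 30 min lay below each of those at 15 min, and neither was called at 30 min against vertical plants (adjusted p = 0.360 and 0.291).

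Zm.12139.1.A1_at combined an early start with a long tail. Its polysomal signals were 255, 371, 219 and 167 in vertical plants, 2290, 1218, 2602 and 2034 at 5 min, and 7028, 6050, 5743 and 6035 at 15 min. It was called at each time from 5 min on: by 2.93 ± 0.38 after 5 min (SE, adjusted p = 0.00663, limma), by 4.58 after 15 min (adjusted p = 2.9e-06), by 2.85 after 30 min (adjusted p = 0.000532) and by 2.55 after 60 min (adjusted p = 0.00387). Zm.16687.1.S1_at had the lowest p-value of the 10 strongest members (3.74 ± 0.20, adjusted p = 4.07e-08), and all 10 passed at 15 min under all 17 alternative settings. Zm.12048.1.S1_at, Zm.11770.1.A1_at, Zm.19051.1.A1_at, Zm.8261.1.A1_at and Zm.11809.1.A1_at changed by 4.25, 3.96, 3.86, 3.82 and 3.33. Of these, Zm.11809.1.A1_at held its level at 30 min (2.94, adjusted p = 0.00764) and the other 4 were lower at 30 than at 15 min (adjusted p between 0.00452 and 0.0120).

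Members differed in how long they stayed up. The count of members called higher in polysomal RNA was 81 at 30 min, against 1.97% of all tested probe sets, and 16 at 60 min, against 1.02%, both against the vertical plants used for 15 min. In direct comparison with 15 min, 111 members were higher at 15 than at 5 min (all tested 2.90%, 103 members without the array that stood apart), 28 were higher at 15 than at 30 min (0.291%) and 92 were higher at 15 than at 60 min (1.38%), and none was lower. Of the 30 probe sets called higher at 15 than at 30 min among 10299 tested, 28 were thus members. With the means of the plant pools in place of single arrays 0 members were called in that comparison by limma, and without the growing season in the model 6 were. It is a comparison between 2 sets of reoriented plants that uses no vertical array, although the same times in total RNA chose the members. The counts of 111, 28 and 92 include members that reached the mean level only with the polysomal arrays at 15 min, such as Zm.16474.1.A1_at. Those arrays are the 15 min side of each comparison, so for such members the calls are not independent of the choice. The counts were not split by that filter.

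At the persistent end, Zm.7578.1.A1_at changed by 2.93 at 15 min (adjusted p = 0.00389), 3.02 at 30 min (adjusted p = 0.00587) and 2.29 at 60 min (adjusted p = 0.0480), and Zm.17163.1.A1_at by 2.80, 2.83 and 2.01 (adjusted p = 0.00119, 0.00250 and 0.0376, limma). The 60 min calls of both were lost under several settings: they held under 7 and 8 of 17. At the transient end, Zm.16514.1.S1_at rose by 2.97 at 15 min (adjusted p = 0.000261) and was lower by 3.76 at 60 min than at 15 min (adjusted p = 6.17e-05), when it stood at -0.79 against vertical plants (adjusted p = 0.378). The count at 60 min was between 6 and 8 when any 1 of 5 arrays was left out: either side at 60 min in repetition 1, the upper side at 60 min in repetition 2, or the right side of vertical plants in either repetition.

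**Figure D4:**
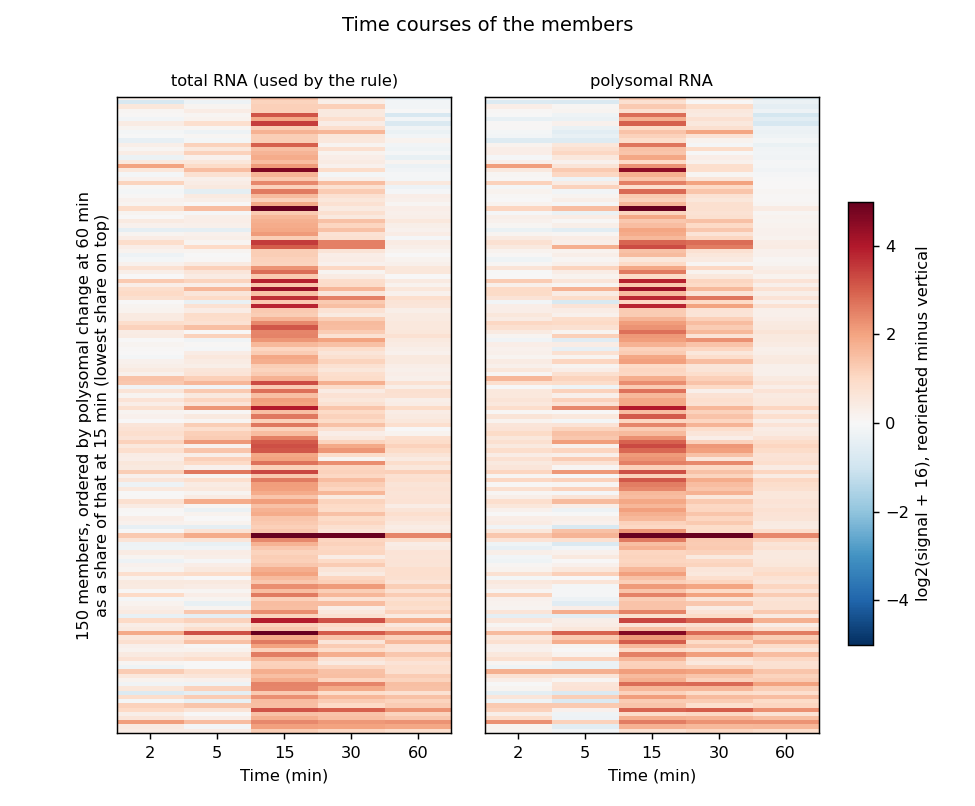
Change in log2(signal + 16) against vertical plants for all 150 members (rows) at 2, 5, 15, 30 and 60 min, in total RNA (left) and polysomal RNA (right); red is higher and blue lower, with colours saturating at 5. Rows run from members whose polysomal change at 60 min was the lowest share of that at 15 min (top) to those with the highest share (bottom), and the 15 min column is red throughout.

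Before 15 min the seasons differed. At 2 min no member passed the polysomal test by limma (all tested 0.0%), although 47 had an unadjusted p under 0.05, against 7.24% of all tested probe sets. In repetition 1, 70 members exceeded a polysomal change of 0.5 at 2 min (all tested 2.39%), in repetition 2, 42 did (8.83%), and 24 did in both (0.68%). Zm.11809.1.A1_at illustrates the difference: its polysomal signals at 2 min were 1310 and 1372 in repetition 1, against 217 and 328 in vertical plants, but 293 and 94.8 in repetition 2, against 335 and 382. Zm.12139.1.A1_at likewise stood at 1742 and 1325 in repetition 1 and at 334 and 436 in repetition 2. The aquaporin tip2 showed the opposite order.

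At 5 min 14 members were called higher in polysomal RNA, against 0.184% of all tested probe sets. Weaker criteria took in more members: 63 members had an unadjusted p under 0.05 (all tested 11.4%), and 43 exceeded a change of 0.5 in both repetitions (all tested 1.64%). The largest changes called belonged to Zm.12139.1.A1_at, Zm.11770.1.A1_at (2.41, adjusted p = 0.0157) and Zm.17250.1.S1_at (2.15, adjusted p = 0.0157, limma). Without the array that stood apart Zm.12139.1.A1_at remained called (2.96, adjusted p = 0.0310), while Zm.11770.1.A1_at (2.26, adjusted p = 0.0673) and Zm.17250.1.S1_at (2.10, adjusted p = 0.0603) missed the threshold. None of these 3 was called without the lower side of repetition 2 at 5 min, with the means of plant pools or without the growing season in the model (adjusted p from 0.0670 to 0.273). Zm.17250.1.S1_at went from 169, 176, 125 and 115 in vertical plants to 862, 563, 682 and 710 at 5 min and 1550, 1551, 1262 and 1500 at 15 min. The count at 5 min was unstable: it was 2 without the array that stood apart, 23 without its lower side, 33 and 0 without the upper and the lower side of repetition 2 at 5 min, and 7 and 6 without the left and the right side of vertical plants in repetition 2. The number of calls at 5 min thus rested on single arrays.

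No difference between the 2 sides of the pulvinus was called at the peak. At 15 min no member differed between lower and upper side by limma in total RNA (8 with an unadjusted p under 0.05, all tested 6.75%) or in polysomal RNA (5, all tested 2.44%), where 0.0194% and 0.0% of all tested probe sets were called. The median lower minus upper difference of the members was -0.16 in total RNA and 0.13 in polysomal RNA, of opposite sign in the 2 extracts of the same powders. In vertical plants the right minus left medians were 0.03 and -0.01, and no member was called by limma (3 and 1 with an unadjusted p under 0.05, all tested 5.38% and 3.38%). At 2 and 30 min, and at 5 min in total RNA, no member was called by limma either. In total RNA 7, 16 and 2 members had an unadjusted p under 0.05 after 2, 5 and 30 min, against 5.0%, 7.06% and 3.48% of all tested probe sets. In polysomal RNA 2 and 10 members did after 2 and 30 min, against 1.62% and 1.84%.

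At 30 min the upper side had the higher value in both seasons for 80 members in polysomal RNA (53.3%, all tested 25.5%) and for 34 in total RNA (22.7%, all tested 23.1%). The total RNA share was thus near that of all tested probe sets. The median lower minus upper difference there was 0.075 in repetition 1 and -0.278 in repetition 2. At 60 min most members had the higher value on the upper side, as they did at every earlier time in total RNA, and few differences passed the test. Lower minus upper had a median of -0.24 in total RNA and -0.25 in polysomal RNA, below 0 for 114 and 111 of the 150 members, while the median of all tested probe sets was -0.01 in total RNA and -0.001 in polysomal RNA. After 2, 5, 15 and 30 min the difference was below 0 for 99, 109, 124 and 109 members in total RNA and for 105, 69, 32 and 119 in polysomal RNA, and in vertical plants, right minus left, for 66 and 76. Over all tested probe sets it was below 0 for between 43.2% and 52.7% in each of these comparisons. By season the medians at 60 min were -0.04 and -0.41 in total RNA and -0.12 and -0.34 in polysomal RNA, larger in repetition 2 in each. The upper side was higher in all 4 pairs of arrays, that is in both seasons and both kinds of RNA, for 68 members (11.8% of all tested probe sets) and the lower side for 15 (11.6%). In total RNA 57 members had an unadjusted p under 0.05, 49 of them higher on the upper side (all tested 9.79% in either direction), and in polysomal RNA 47, of which 43 were higher on the upper side (all tested 4.04%).

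In total RNA 3 members were called at 60 min (all tested 0.252%) and in polysomal RNA none by limma (all tested 0.00971%, lowest adjusted p of a member 0.113; 2 members were called without the array that stood apart at 5 min). Zm.7611.1.A1_a_at was higher on the lower side, with total RNA signals of 209 and 359 on the upper side and 869 and 862 on the lower side at 60 min (1.60 ± 0.30 SE, adjusted p = 0.0349, limma). In polysomal RNA the same transcript had 181 and 312 on the upper side and 825 and 812 on the lower side. At 15 min its sides were close (1194 and 2405 against 1657 and 2037 in total RNA), and vertical plants had 434, 290, 166 and 253. At 60 min the upper side was below the vertical plants of its own season in repetition 1 (209 against 434 and 290). In repetition 2 it was above them (359 against 166 and 253). The lower side was above the vertical plants of its own season in both repetitions. Zm.13005.1.S1_at (-0.87, adjusted p = 0.0465) and Zm.17990.1.S1_at (-0.75, adjusted p = 0.0494) were higher on the upper side. Leaving out any 1 of the 4 total RNA arrays at 60 min left 0 or 1 of the 3 calls.

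Annotated members did not all lean the same way at 60 min. CDPK1 had total RNA signals of 776 and 880 on the upper side and 616 and 438 on the lower side (-0.65, adjusted p = 0.250). MPK4 had 665 and 1001 on the upper and 493 and 595 on the lower side (-0.58, adjusted p = 0.0771), and SAG 635 and 811 against 335 and 354 (-1.03, adjusted p = 0.0924). dbf1 had 460 and 601 on the upper and 667 and 862 on the lower side (0.52, adjusted p = 0.112). None of these 4 passed, although in each the sides were ordered alike in both seasons and, in polysomal RNA, again in both. The other 7 annotated probe sets had side differences between -0.47 and 0.23 in total RNA at 60 min.

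**Figure D5:**
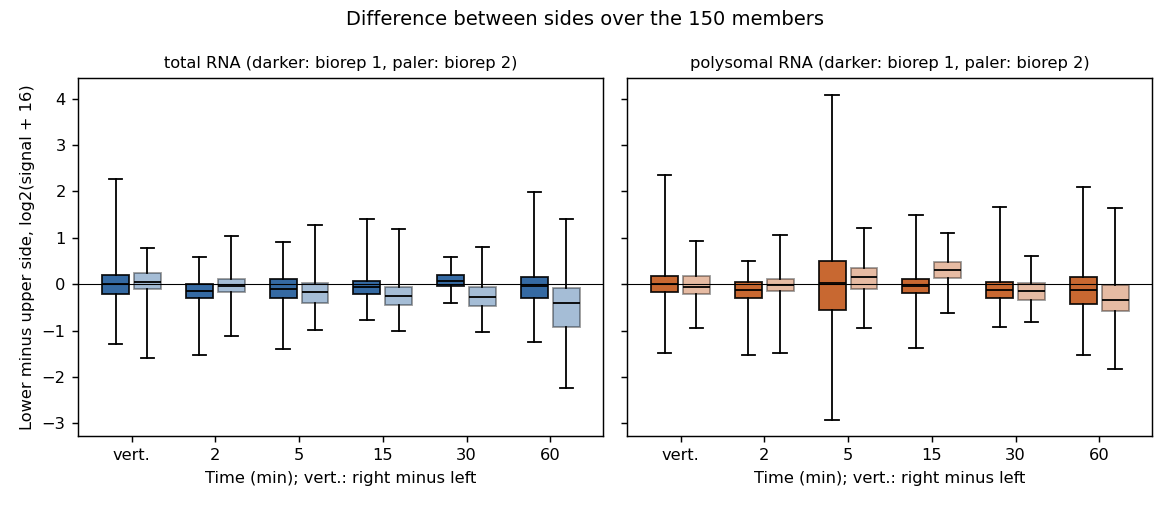
Lower minus upper side (right minus left for vertical plants) in log2(signal + 16) over the 150 members, by time and season, in total RNA (left) and polysomal RNA (right); boxes show the middle 50% and the median, whiskers the full range, darker boxes repetition 1 and paler boxes repetition 2. By season and kind of RNA the medians lie between -0.28 and 0.31 up to 30 min and between -0.41 and -0.04 at 60 min, and all 4 are below 0 at 2 and at 60 min; the wide polysomal box at 5 min in repetition 1 contains the array that stood apart.

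At 5 min 17 members differed between the sides in polysomal RNA, 10 higher on the lower and 7 higher on the upper side. This share was below the 12.3% of all tested probe sets that were called, so the calls do not set the members apart. Without the array that stood apart the count was 0, without the lower side of the same pool it was 1, and without the upper or the lower side of repetition 2 it was 40 or 36. The extremes were Zm.13688.1.S1_at (2.52, adjusted p = 0.0245), UGlcAE Zm.12322.1.A1_at (1.41, adjusted p = 0.0121) and Zm.8866.1.A1_at (1.12, adjusted p = 0.00484) on the lower side and Zm.10180.1.S1_at (-1.86, adjusted p = 0.00733), ZmAffx.442.1.A1_at (-1.77, adjusted p = 0.0144) and Zm.6685.1.A1_at (-1.15, adjusted p = 0.0247, limma) on the upper side. For Zm.12322.1.A1_at the polysomal signal of that array was 156, against 739 on the lower side of the same pool, while total RNA from the same powders gave 386 and 476. Of these 6 only Zm.13688.1.S1_at kept a side difference at 60 min of more than 1 in both kinds of RNA (1.58 and 1.80, neither past the threshold).

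Other genes of the pathways the annotated members belong to mostly did not follow them. Counts by limma at 15 min are given with those at an unadjusted p under 0.05 in brackets; over all tested probe sets 2.75% were called higher, 0.971% were called lower and 16.9% had an unadjusted p under 0.05. Of 10 tested probe sets for calcium signalling proteins (calmodulins, calcium-dependent kinases and the like) CDPK1 alone was higher in polysomal RNA at 15 min (1), with a list median of 0.18 against -0.02 for all tested probe sets. The list for protein kinases and phosphatases held 4 tested probe sets, all for the mitogen-activated protein kinases MPK4, MPK5 and MPK6, and no phosphatase. Of these MPK4 alone rose (2, the other being MPK5 Zm.218.1.A1_at at -0.32). Both tested AP2 factors rose, dbf1 and DBP1a, another DRE-binding factor (Zm.7368.1.S1_at, 0.86 ± 0.135 SE, adjusted p = 0.000983, limma), which is not a member. Of 25 probe sets for aquaporins tip2 rose and 3 fell (11), the latter for the plasma membrane aquaporins PIP1-3 and pip2c. PIP1-3 fell by 0.74 and 0.70 on a pair of probe sets (Zm.16315.1.S1_a_at, adjusted p = 0.0483, and Zm.16315.3.S1_a_at, adjusted p = 0.0408, limma). Its other probe sets, Zm.16315.1.S1_x_at (-0.68, adjusted p = 0.0907) and Zm.16315.3.S1_x_at (-0.73, adjusted p = 0.0761), missed the threshold. The fall of pip2c (Zm.606.1.A2_s_at) was 0.72 (adjusted p = 0.0281).

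Of 29 cell wall probe sets (expansins, xyloglucan-modifying enzymes, cellulose synthases and glucosidases by symbol), 1 of the 3 for expA4, an expansin that loosens the wall, rose by 1.94 (Zm.13728.2.S1_at, adjusted p = 0.000254). The other expA4 probe sets were at 0.28 (Zm.13728.1.S1_at, adjusted p = 0.757) and 0.45 (Zm.13728.2.S1_a_at, adjusted p = 0.411, limma), and 5 of the 29 had an unadjusted p under 0.05. Of 18 probe sets for 15 glutathione S-transferases, detoxifying enzymes, gst30 (Zm.864.1.S1_at) rose by 1.61 (adjusted p = 0.0163, 3 at an unadjusted p under 0.05), and of 9 for dividing cells (7 genes, among them the cyclotide gene) PCNA (Zm.165.1.S1_at) by 0.98 (adjusted p = 0.0289, limma, 6 at an unadjusted p under 0.05). No probe set of the remaining lists was called by limma in either direction at 15 min. The hormone lists held 12 probe sets for jasmonate, ethylene and wound response (median change -0.20, 2 at an unadjusted p under 0.05), 4 for abscisic acid and drought (median 0.92, 3) and 3 for auxin (median -0.23, 0). The 4 for abscisic acid and drought stand for 2 genes. Those of dhn2 were at 1.19, 0.87 and 0.98, and that of dhn1 was at -0.56. The median and the 3 counted there thus come from dhn2 alone. Among the others were 9 probe sets for further transcription factors (median 0.03, 1), 3 for phospholipid and inositol metabolism (median 0.10, 1), 10 probe sets for heat shock proteins and chaperones (median 0.13, 0) and 8 for redox enzymes (median -0.15, 1). The lists for sugar and starch metabolism (7 probe sets, median -0.15, 0), defence (2, median 0.50, 0) and photosynthesis (12, median -0.48, 6) likewise held no call, nor did seed storage (2, median -0.23, 0) and pollen (2, median -0.23, 1). With 901 of the 10299 tested probe sets annotated to 1 gene, these lists cover a small share of each pathway.

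Of the 13 members that missed the polysomal threshold at 15 min, 11 had an unadjusted p under 0.05 and all had a positive change, between 0.58 and 2.57 (adjusted p from 0.0543 to 0.324, limma). Some were large but differed between the seasons, as Zm.4324.1.A1_at did with 3.96 in repetition 1 and 1.17 in repetition 2. For the 4 identifier stems with a pair of members the polysomal changes at 15 min were 2.46 and 1.92 (Zm.7611) and 2.32 and 2.23 (Zm.9425). They were 1.95 and 1.77 for Zm.17858 and 1.79 and 1.24 for Zm.3568. Both probe sets of a pair had met the conditions of the choice, so their likeness is no separate check. The member Zm.9197.2.A1_at was at 2.515, whereas the tip1 probe set Zm.9197.1.A1_at of its stem, not a member, was at -0.485. Probe sets of a stem may detect the same transcript, but need not.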

How the data were processed

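The array is the Affymetrix Maize Genome Array. The values are the intensity signals the authors deposited, 1 per probe set and array, on a linear scale; GCOS made them per the submitters' processing notes, and its version and scaling target are not given in the sources used here. The trimmed mean signal of the 48 arrays lay between 495.0 and 498.4, so the deposited signals were on a common scale, and between 15.0% and 22.4% of probe sets were below 16. Every deposited column belonged to a labelled array (0 columns of no sample). The number of arrays, not a read depth, limits the precision.

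Signals were used as log2(signal + 16), computed here from the deposited intensity. Probe sets with a mean of at least 7 over 48 arrays entered the tests. For each kind of RNA a linear model in limma (version 3.58.1 under R 4.3.3, with statmod 1.5.0) took the 24 arrays in 12 groups, with the repetition as a fixed effect and the plant pool, which holds both sides, as a random block (correlation 0.576 in total and 0.381 in polysomal RNA, 11 residual degrees of freedom). P-values were adjusted by Benjamini-Hochberg over all 10299 probe sets with a threshold of 0.05. A change is the mean of both sides at a time minus that of vertical plants; the range of the replicate error is given as the SE of the fit. The repetition numbers mark growing seasons in the labels, so they pair the samples. The deviations of the repetitions between 2 groups correlated with a median r of 0.626 in total and 0.664 in polysomal RNA over 66 pairs of groups (lowest 0.508 and -0.023).

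Nothing in the labels says more than that the repetitions were separate seasons, each a pool of 6 pulvini per time. With 2 pools per group, the p-values rest on a spread estimated over all 12 groups of a kind of RNA. The mean difference between the seasons is removed first, so they do not measure that difference. Comparisons between sides rest on the spread within pools. On simulated data 89% of probe sets changed by 1 and 95% of those changed by 2 in log2 were recovered at 15 min in polysomal RNA, and 86% and 100% for a side difference. Each size of change was given to 100 probe sets and was the same in both seasons. The rates therefore do not carry over to comparisons with few changed probe sets or to changes that differ between seasons. They do not measure the power of the side comparison made here.

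Gene names come from the platform annotation, updated through RefSeq (assembly Zm-B73-REFERENCE-NAM-5.0), where 9 of the 10 listed genes of members were found. Named members are the 10 with the highest total RNA change at 15 min, every member with a single listed gene, the 3 highest and 3 lowest called members of each test with the same sign in both repetitions, the 3 probe sets on either side of the limit of 150, and called genes of the lists. Members that missed the threshold, the side values of annotated members and the pair stems were singled out after their values were seen. The members, gene lists and tests were chosen with earlier results of these data known. Alternatives were another pseudocount, filter, normalization or block and leaving out each array. A search of promoters for motifs was not run, and no sequence was used here.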

Additional observations from a re-analysis of the deposited data

Results flagged for a closer look

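A difference between the sides was called for 3 members in total RNA at 60 min (Zm.7611.1.A1_a_at higher on the lower side, Zm.13005.1.S1_at and Zm.17990.1.S1_at higher on the upper side) and for 17 members in polysomal RNA at 5 min, by the fitted lower minus upper difference in limma. The share of members called at 5 min was below that of all tested probe sets. The 17 calls at 5 min fell to 0 without the polysomal array labelled upper side, 5 min, repetition 1, and 12.3% of all tested probe sets were called in that comparison. Whether that array or the lower side of its pool differed, and why, was not tested.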

How the results depend on the processing

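Of 271 alternative values of the 20 counts of called members, 225 lay within 1.5 times the reported count. A reported 0 that stayed 0 was taken as within. The reported count was 0 at 2 min and for most side comparisons, so the 225 include many such values. They do not describe the stability of the counts above 0. Of 756 alternative values of 48 results on single members, 99 lost the threshold and 0 changed sign. Without the growing season as a replicate block, the members called higher in polysomal RNA were 0, 89, 24 and 0 after 5, 15, 30 and 60 min, those higher at 15 than at 5, 30 and 60 min were 59, 6 and 33, and those differing between sides were 7 in total RNA at 60 min and, in polysomal RNA, 9 and 1 after 5 and 60 min. With both sides counted as separate plants (no plant pool block) the counts higher were 4, 39 and 39 after 2, 5 and 60 min and 50 for 15 against 30 min, and the side counts 0 in total RNA at 60 min and 3 in polysomal RNA at 5 min. With the mean of each pool, which leaves fewer samples, they were 0, 45 and 2 after 5, 30 and 60 min and 0 for 15 against 30 min. A pseudocount of 1 left 1 side call in total RNA at 60 min, and no filter on low values left 0 there and 9 in polysomal RNA at 5 min. Leaving out 1 array gave between 0 and 2 members higher at 2 min, between 0 and 33 at 5 min, and 126 to 136 at 15 min. The range was 52 (without the lower side at 30 min, repetition 1) to 78 at 30 min and 6 to 14 at 60 min. It gave 93 to 110, 19 to 39 and 78 to 94 for 15 against 5, 30 and 60 min, and side counts of 0 to 1 in total RNA at 60 min, 0 to 40 and 0 to 2 in polysomal RNA at 5 and 60 min and 0 in the other 9 side comparisons. Where a fit left 1 array in a group, that array was taken to vary like the others. The counts at 15 min and of 15 against 5 and 60 min stayed within 1.5 times under every setting but the one without the season; those at 5, 30 and 60 min and of 15 against 30 min did not. Quantile normalization and a pseudocount of 64 moved no count by over 1.5 times. The cause of these shifts was not tested. The promoter motifs were not run, and signals near the floor of the array limit fold changes of the dimmest members.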
